A study of Homo sapiens with 24 samples.

Results

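The account covers 145 array features of the neuroblastoma cell line IMR-32 in which a culture carrying FOXP1 and a culture carrying GFP lay close together at 0 h and apart at 12, 24 and 72 h. They were selected on their own IMR-32 values. With the log2 ratio of FOXP1 over GFP cells taken from the intensities that the authors deposited after normalization, a member had an absolute ratio under 0.5 at 0 h, ratios at the 3 later times that were all at least 0.8 or all at most -0.8, and the scanner software's flag for signal well above background on 6 or more of the 8 IMR-32 arrays. Of 43291 features besides control spots, 31633 passed the limit on background and 145 met the whole rule, 62 with higher and 83 with lower signal in FOXP1 cells. All 4 IMR-32 ratios were used for the choice, so the IMR-32 values are a description and carry no test.

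RNA of the established human neuroblastoma lines IMR-32, SK-N-BE(2) and CHP-212 was labelled with Cy3 and hybridized to 24 one-colour oligonucleotide arrays. Per line, FOXP1 was carried by 1 polyclonal culture and GFP by another, both under a doxycycline-controlled vector delivered by retrovirus, were sampled at 0, 12, 24 and 72 h with 1 array per culture and time. A ratio at any single time therefore has no replicate, and since a group of 4 arrays samples a single culture at successive times, p-values measure only the spread between those arrays and leave out the variation between separately made cultures. The FOXP1 and the GFP array of a time shared a slide, with 0 and 12 h on one slide and 24 and 72 h on another. Well above background were between 72.8 and 82.3% of features on the IMR-32 arrays, between 53.9 and 81.5% in CHP-212 and between 73.6 and 80.4% in SK-N-BE(2).

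FOXP1 is a forkhead transcription factor of the FOXP subfamily, whose members bind DNA through a winged-helix domain and are known mostly as repressors, with roles in lymphocyte, heart and neuronal development. In a doxycycline-controlled system, a transactivator protein switches on the transgene once the drug is added, and a control culture with GFP carries the same system and receives the same drug. Genes that follow the transgene would part from the control after the drug is added.

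The FOXP1 transcript did not follow that order in IMR-32, which goes against naming the features by induction. Its log2 level was 12.99, 13.12, 13.14 and 12.88 in FOXP1 cells and 11.41, 11.51, 11.79 and 11.60 in GFP cells at 0, 12, 24 and 72 h, on the feature listed for FOXP1 (UKv4_A_23_P155257). The log2 ratio was thus already 1.58 at 0 h, and 1.60, 1.35 and 1.28 later. In CHP-212 it was 1.79, 2.15, 1.86 and 1.96, also present at 0 h. In SK-N-BE(2) the mean ratio over the times was -0.17, and the arrays labelled FOXP1 did not carry more of this transcript. On this feature, FOXP1 cells of IMR-32 thus had more FOXP1 signal than GFP cells at 0 h already, and the 145 features are called here by their rule. It was the only feature listed for FOXP1. Whether it tells the transgene from the FOXP1 transcript of the cells themselves was not tested. In bulk RNA, a change in the share of a kind of cell within a culture and a change of RNA per cell cannot be told apart.

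The cultures also differed widely at 0 h in other transcripts. An absolute log2 ratio of at least 0.8 was seen at 0 h in 22.7% of the features that passed the limit on background, against 17.9% at 12 h, 17.8% at 24 h and 21.5% at 72 h. Symbols were at hand for 3 of 10 adrenergic neuroblastoma markers, each with the background flag passed on all 8 IMR-32 arrays. Symbols came only from features that the study had listed as changed. These 3 were therefore picked toward differences and do not stand for the other markers. TH and DBH, enzymes of catecholamine synthesis, had log2 ratios of 3.25 and 3.92 at 0 h, and CHGB, a protein of secretory granules, had 2.13. PRRX1, the single mesenchymal marker of 6 with a symbol, was not well above background on any IMR-32 array, and none of the 4 Schwann cell markers had one. The part of this standing difference in the results on the members was not tested.

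The same rule was then applied with each other time as the odd one, which asks how many features single out 0 h beyond those that single out any time. With 0 h as the odd time it found the 145 features (0.458% of 31633). With normexp background correction and quantile normalization in place of the authors' table it found 66, and 35 were shared (24.1% of the 145 and 53% of the 66). In the authors' table it found 126 (0.398%) with 12 h as the odd time, 53 (0.168%) with 24 h and 111 (0.351%) with 72 h. The count for 0 h was thus the highest of the 4 in IMR-32, with those for 12 and 72 h close below it. In CHP-212 the rule gave 122, 37, 13 and 143 features for 0, 12, 24 and 72 h, with the most at 72 h, and in SK-N-BE(2) it gave 74, 19, 33 and 40, with the most at 0 h.

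**Figure D1:**
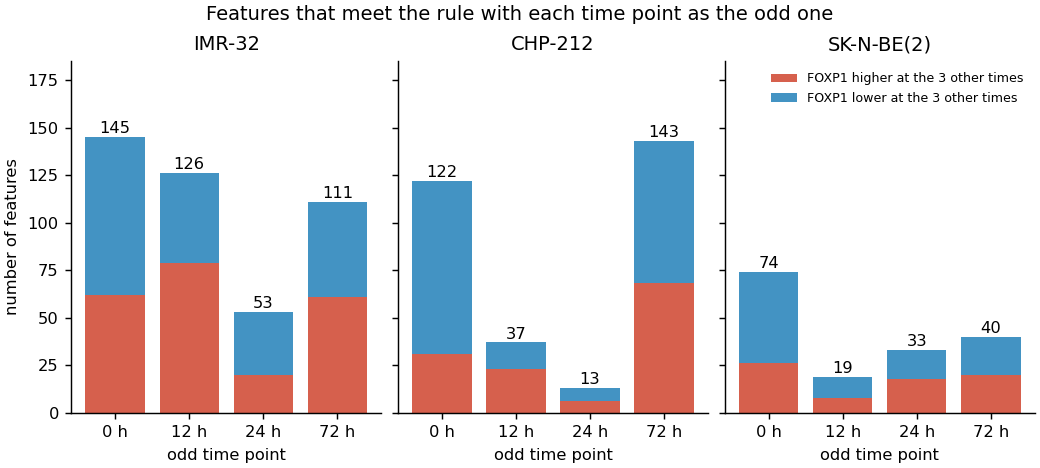
Number of features (vertical axis) that meet the rule with each time as the odd one (horizontal axis), in the 3 lines, split by whether FOXP1 cells were higher or lower at the other times. In IMR-32 the bar at 0 h (145) stands little above those at 12 h (126) and 72 h (111).

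The direction of the members was already present at 0 h in most of them. The 0 h ratio had the sign of the later ratios in 58 of the 62 higher and in 79 of the 83 lower members, and in 89 of the 145 it was at least 0.3 in that direction. An absolute 0 h ratio under 0.2 was found in 31. The median ratio of the higher members was 0.34 at 0 h and 1.10, 1.13 and 1.13 at 12, 24 and 72 h, and that of the lower members -0.36 at 0 h and -0.96, -1.16 and -1.13 later. The sets with another odd time leaned the same way, with medians at the odd time of 0.35 and -0.38 for 12 h and 0.37 and -0.38 for 72 h. The limits of the rule admit 0 h ratios up to 0.5 on either side, and each 0 h ratio is a single pair of arrays.

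**Figure D2:**
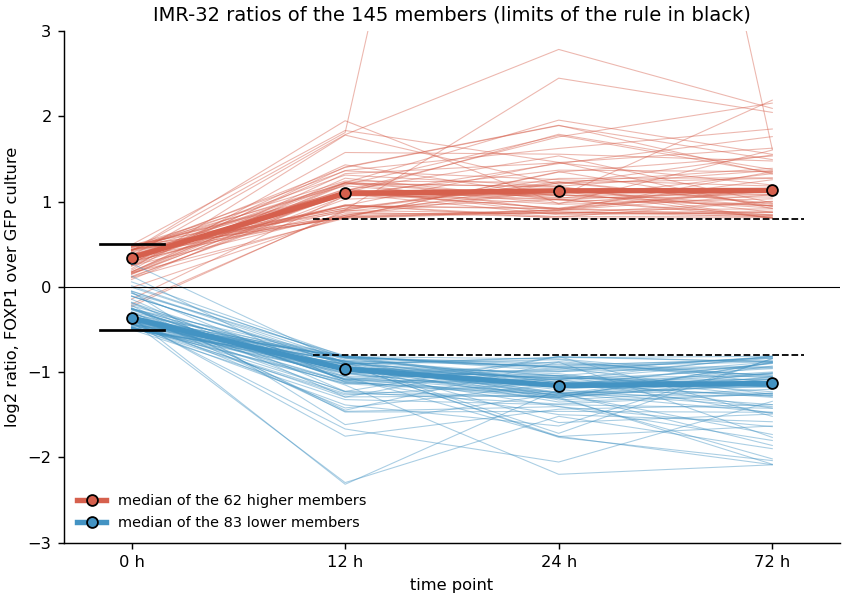
Log2 ratio of FOXP1 over GFP culture (vertical axis) of the 62 higher and 83 lower members at each time (horizontal axis), 1 thin line per member and a thick line for the median, with the limits of the rule in black. The medians leave 0 h at 0.34 and -0.36 and lie near 1.1 in size later; the 24 h ratio of 12.99 of UKv4_A_24_P186936 lies outside the axis.

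Many members lay near a limit. All later ratios reached 1 in size in 46 of the 145 and 1.5 in size in 3. FANCI was the lower member nearest the 0 h limit, with a ratio of -0.50 there and -1.32, -1.38 and -1.42 later, and UKv4_A_24_P239385, with -0.50, -1.41, -0.80 and -1.07, lay just outside. TGFB1, which encodes a secreted growth factor that regulates matrix production and cell growth, was the feature just outside for the higher direction, with ratios of 0.50, 1.96, 1.94 and 1.93, and was kept out by its 0 h ratio alone. At the later limit, UKv4_A_23_P388670 (-0.07, -0.80, -0.99 and -0.95) was just inside and UKv4_A_24_P145316 (-0.23, -0.80, -0.85 and -0.83) just outside. Features that met the ratio limits and were well above background on 6 arrays numbered 10 higher and 4 lower, and on 5 arrays, outside the rule, 2 and 2.

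A ratio can open because the FOXP1 culture moved, because the GFP culture moved, or both. The mean log2 level at 12, 24 and 72 h minus that at 0 h was taken in each culture for this. In the higher members the median shift was 0.32 in FOXP1 cells and -0.55 in GFP cells, and in the lower members -0.38 and 0.39. With normexp background correction and quantile normalization the medians were 0.26 and -0.29 in the higher and -0.24 and 0.26 in the lower members. Over all features that passed the limit on background, the median shift in the authors' table was -0.02 in both cultures. The shift was larger in GFP cells for 42 of the 62 higher and 46 of the 83 lower members. In 37 members the GFP culture moved away by at least 0.5 while the FOXP1 culture moved by under 0.25 in either direction, in 25 the FOXP1 culture moved by at least 0.5 toward the later side with the GFP culture under 0.25, and in 47 both moved apart by at least 0.25. Thus for 88 of the 145 the opening of the ratio came more from the control culture than from the FOXP1 culture. Over all features that passed the limit on background, the shift also spread more widely in GFP cells (standard deviation 0.46) than in FOXP1 cells (0.41). Each shift rests on the single 0 h array of its culture. In GFP cells that array had the lowest 75th percentile of processed signal of the IMR-32 arrays, 826 where the highest had 2142. The share of all features with the larger shift in GFP cells was not counted. With 12 h as the odd time the larger shift lay in GFP cells for 33 of 79 higher and 18 of 47 lower features, with 24 h for 10 of 20 and 8 of 33, and with 72 h for 45 of 61 and 43 of 50.

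**Figure D3:**
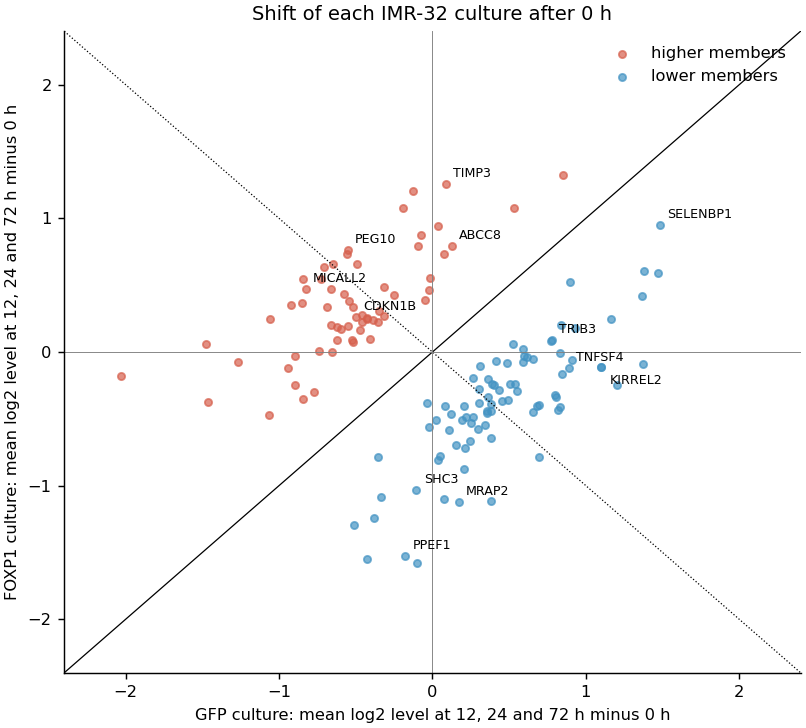
Shift of the log2 level after 0 h in the GFP culture (horizontal axis) and in the FOXP1 culture (vertical axis), 1 point per member, with lines of equal shift drawn in full and of equal and opposite shift dotted. TIMP3, MRAP2 and PPEF1 lie along the vertical axis, where the FOXP1 culture moved, and KIRREL2, TNFSF4 and TRIB3 along the horizontal axis, where the GFP culture moved; 1 member with a FOXP1 shift of 3.81 lies outside the frame.

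The array files name probes and not genes. A symbol was at hand for 27 of the 145 members, 14 higher and 13 lower, from a gene list of the study that holds only features it had listed as changed and that was used here in part. The named members are therefore picked toward larger differences and do not stand for the unnamed ones. No gene list could be counted, since between 3.57 and 54.5% of the genes of the 12 lists considered had a named feature, under the 80% required.

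Of the 14 higher members with a symbol, TIMP3 and PCOLCE encode secreted proteins that act on the extracellular matrix. TIMP3, an inhibitor of matrix metalloproteinases, had log2 levels of 9.61, 10.71, 11.01 and 10.89 in FOXP1 cells at 0, 12, 24 and 72 h and of 9.18, 9.31, 9.11 and 9.39 in GFP cells. The levels of TIMP3 in GFP cells stayed within 0.3 of each other, so the opening of its ratio from 0.43 to 1.40, 1.89 and 1.49 was that of the FOXP1 culture. PCOLCE, an enhancer of procollagen processing, had 13.49, 14.08, 14.04 and 14.33 in FOXP1 cells and 13.31, 12.75, 12.58 and 13.13 in GFP cells, with both cultures moving apart. TIMP3 was the named higher member with the largest mean later ratio, 1.60.

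Regulators of growth and of transcription followed. CDKN1B, the p27 inhibitor of cyclin-dependent kinases, had log2 levels of 8.58, 9.17, 8.45 and 8.89 in FOXP1 cells and of 8.14, 7.95, 7.41 and 7.56 in GFP cells. Its ratio was 0.44 at 0 h and 1.22, 1.04 and 1.33 later, with a shift of 0.26 in FOXP1 cells and -0.50 in GFP cells, so that the larger part lay in the control. PEG10, an imprinted gene derived from a retrotransposon and expressed from the paternal allele, had 11.35, 12.04, 12.30 and 11.98 against 11.08, 10.81, 10.34 and 10.42. FEV, an ETS factor of serotonergic neurons, had 9.82, 10.68, 10.52 and 10.44 against 9.66, 9.48, 8.75 and 9.10. In PEG10 and FEV the FOXP1 culture lay above the GFP culture at every time and the gap was widest at 24 h. PPP2R5B, a regulatory subunit of protein phosphatase 2A, had ratios of 0.43, 1.31, 1.18 and 1.37, and CALCOCO1, a coiled-coil coactivator, of 0.49, 1.24, 1.23 and 0.97.

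Membrane and signalling proteins made up the rest of the named higher members. ABCC8, the sulfonylurea receptor of ATP-sensitive potassium channels, had log2 levels of 13.61, 13.60, 14.42 and 15.17 in FOXP1 cells and of 13.22, 12.65, 13.50 and 13.91 in GFP cells, and both cultures were highest at 72 h. GRIK2, a kainate receptor subunit, had ratios of 0.43, 0.82, 1.35 and 1.54, and CLSTN2, a calsyntenin of the postsynaptic membrane, of 0.12, 1.06, 1.45 and 1.76. In both of these the ratio was larger at each later time than at the one before. LAT2, an adaptor of immune receptor signalling, had 0.20, 1.58, 1.56 and 1.48, and MICALL2, a protein of vesicle traffic to cell junctions, 0.21, 1.78, 1.20 and 1.55. With normexp background correction and quantile normalization the mean later ratio was 1.00 in place of 1.54 for LAT2 and 0.92 in place of 1.51 for MICALL2. ARPP21 and TRPM3, named here after their values were seen, were well above background on 6 of the 8 arrays, and their ratios at 12 h were 1.41 and 1.95.

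**Figure D4:**
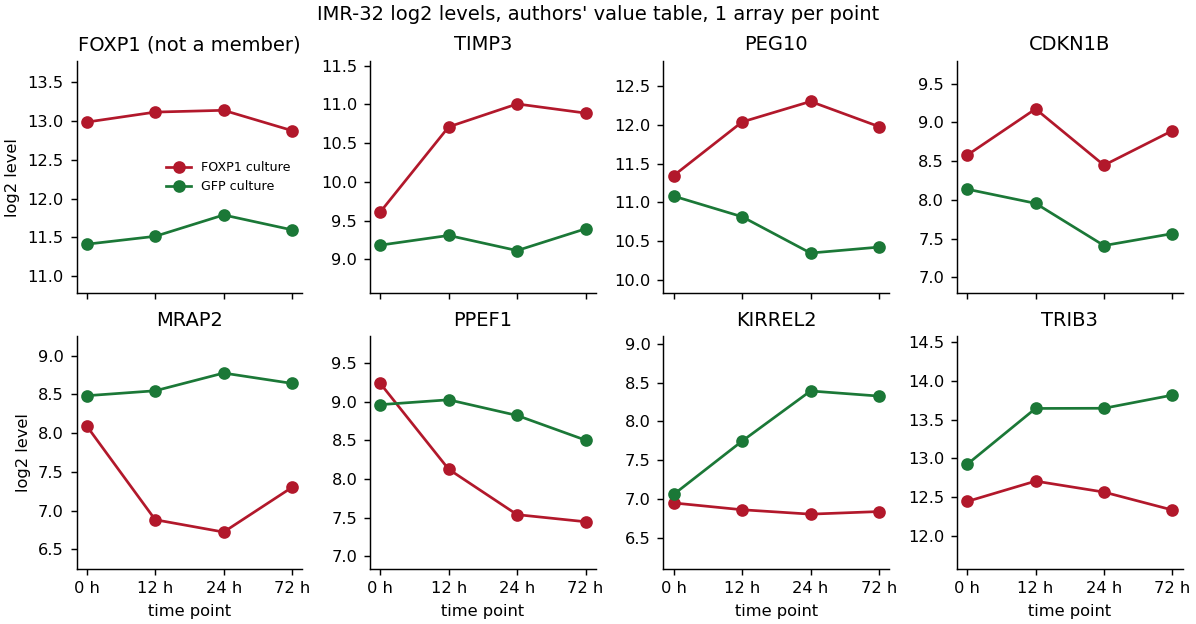
Log2 level in the authors' normalized table (vertical axes, all spanning the same range) at each time (horizontal axis) in the FOXP1 and the GFP culture of IMR-32, 1 array per point, for FOXP1 and 7 members. FOXP1 is apart at 0 h already, TIMP3, MRAP2 and PPEF1 move mainly in the FOXP1 culture, and KIRREL2 and TRIB3 mainly in the GFP culture.

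Among the lower members, MRAP2 had the largest mean later ratio of those named, -1.69. This accessory protein of melanocortin receptors had log2 levels of 8.09, 6.88, 6.72 and 7.30 in FOXP1 cells and of 8.48, 8.55, 8.78 and 8.64 in GFP cells. The GFP levels varied little and the FOXP1 levels were lower at all later times. A further MRAP2 feature, UKv4_A_32_P41254, was not a member, since its ratio was -0.79 at 0 h already and -0.77, -1.26 and -1.12 later. The features of MRAP2 therefore disagreed on whether the difference opened after 0 h.

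Other named lower members had a larger shift in the FOXP1 than in the GFP culture. PPEF1, a protein phosphatase with calcium-binding EF hands, had log2 levels of 9.23, 8.13, 7.54 and 7.45 in FOXP1 cells and of 8.96, 9.02, 8.82 and 8.50 in GFP cells. Its ratio changed sign, from 0.27 at 0 h to -0.90, -1.28 and -1.05, as it did in 4 lower members. SHC3, a neuronal adaptor of receptor tyrosine kinases, had 8.60, 7.91, 7.47 and 7.33 against 8.82, 8.81, 9.19 and 8.17. CDKL2, a kinase related to cyclin-dependent kinases, had ratios of -0.35, -1.02, -1.24 and -1.86. Its mean later ratio of -1.37 was -0.84 with normexp background correction and quantile normalization. In FANCI, of the Fanconi anemia pathway of DNA crosslink repair, the FOXP1 culture shifted by -0.58 and the GFP culture by 0.30. THAP10, a zinc finger protein, had ratios of -0.35, -1.23, -1.37 and -1.25. SCML1, a relative of Polycomb group proteins, had -0.25, -0.81, -1.16 and -0.90.

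In another group of lower members it was the GFP culture that moved. KIRREL2, an immunoglobulin-like adhesion protein, had log2 levels of 6.95, 6.86, 6.80 and 6.84 in FOXP1 cells and of 7.06, 7.75, 8.39 and 8.33 in GFP cells. The FOXP1 levels of KIRREL2 stayed within 0.3 of each other, and its GFP levels were higher at all later times than at 0 h. TRIB3, a pseudokinase induced by endoplasmic reticulum and amino acid stress, had 12.44, 12.71, 12.57 and 12.33 against 12.92, 13.65, 13.65 and 13.82. TNFSF4, the OX40 ligand, had a shift of -0.12 in FOXP1 cells and 0.89 in GFP cells, and LOC100132891 of -0.03 and 0.60. Both had a mean later ratio of -1.06, which with normexp background correction and quantile normalization was -0.41 for TNFSF4 and -0.39 for LOC100132891. For KIRREL2 it was -0.81 in place of -1.32. In SELENBP1, a selenium-binding protein, both cultures moved up, by 0.95 and 1.49.

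Members without a symbol are given by feature name for the largest ratios. UKv4_A_24_P186936 had a ratio of 12.99 at 24 h, where its spot on the FOXP1 array had a log2 level of 17.16 against 5.81 to 5.88 on the other FOXP1 arrays and was marked as an outlier by the scanner software. It was the sole member with such a mark, and 144 were left without it. UKv4_A_32_P211117 had ratios of 0.37, 1.79, 2.79 and 2.09, with a shift of -2.03 in the GFP culture and -0.18 in the FOXP1 culture. Its mean later ratio of 2.22 was 0.83 with normexp background correction and quantile normalization. On the lower side, UKv4_A_23_P149084 had -0.40, -2.29, -1.52 and -1.90, with a mean of -1.90 that was -0.79 under that processing, and UKv4_A_23_P345118 had -0.36, -1.15, -2.20 and -2.09.

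Since FOXP1 is a forkhead protein, the start regions of the named members were searched for the forkhead core TGTTTAC on both strands. RefSeq promoter windows of 300 bases (GRCh38.p14) were matched for 18 of the 27 named members, with 33 windows in all. The core was present in 2 of the 33 windows, 1 of PPEF1 and 1 of ARPP21, and in 3.42% of all 35116 windows. These letters are a description of the windows and not of binding. The PPEF1 window is shown because it holds the core, in capitals, and those of TIMP3 and MRAP2, the named members with the largest mean later ratios in each direction, because they do not hold it. Further windows of PPEF1 and MRAP2, not shown, do not hold it.
PPEF1, chrX:18690713-18691012, + strand: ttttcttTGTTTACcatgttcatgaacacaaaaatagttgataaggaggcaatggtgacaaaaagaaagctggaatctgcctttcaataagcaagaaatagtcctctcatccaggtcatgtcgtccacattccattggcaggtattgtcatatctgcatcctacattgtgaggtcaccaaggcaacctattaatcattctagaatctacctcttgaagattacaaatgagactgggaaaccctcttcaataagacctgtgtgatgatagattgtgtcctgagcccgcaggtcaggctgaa
TIMP3, chr22:32801455-32801754, + strand: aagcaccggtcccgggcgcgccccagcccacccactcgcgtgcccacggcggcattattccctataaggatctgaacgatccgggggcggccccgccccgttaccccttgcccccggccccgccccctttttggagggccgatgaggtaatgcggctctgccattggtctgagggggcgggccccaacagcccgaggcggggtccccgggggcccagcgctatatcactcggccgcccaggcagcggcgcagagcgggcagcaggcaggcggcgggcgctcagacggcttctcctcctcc
MRAP2, chr6:84033522-84033821, + strand: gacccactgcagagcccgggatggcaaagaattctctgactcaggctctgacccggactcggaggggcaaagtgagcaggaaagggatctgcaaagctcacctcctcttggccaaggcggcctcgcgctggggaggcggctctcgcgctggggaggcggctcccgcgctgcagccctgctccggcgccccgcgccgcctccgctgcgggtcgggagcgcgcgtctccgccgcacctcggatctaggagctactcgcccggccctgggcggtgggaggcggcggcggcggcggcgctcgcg

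CHP-212 and SK-N-BE(2) took no part in the choice and allow tests. FOXP1 and GFP cells of each line were compared over the 4 times with limma. A call needed a fold change of 2 or more with an adjusted p below 0.05. In CHP-212, 127 members were tested and 9 were called (7.09%), with FOXP1 cells higher in 3 and lower in 6, where 3.03% of all 32958 features tested were called, 1.94% higher and 1.09% lower. Of the 55 higher members tested, 2 were called higher and 2 lower, and of the 72 lower members 1 was called higher and 4 lower. In SK-N-BE(2), where the arrays labelled FOXP1 did not have more signal on the FOXP1 feature, 1 of 138 members tested was called (0.725%). It was lower on the arrays labelled FOXP1, though higher in FOXP1 cells of IMR-32. Of all 34044 features tested in SK-N-BE(2), 0.72% were called, 0.426% higher and 0.294% lower. The share called in SK-N-BE(2) was near that of all features. Whether the members differ between the lines was tested for single members only.

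The member with the largest difference in CHP-212 was SHC3. On the scale of log2 processed signal after subtraction of the array's 75th percentile, it had -5.47, -5.18, -3.76 and -4.40 in FOXP1 cells at 0, 12, 24 and 72 h and -0.88, -0.36, -0.74 and -0.76 in GFP cells. The groups did not overlap, 2 of the 4 FOXP1 arrays were well above background, and the log2 difference was -4.02 (standard error 0.35, adjusted p = 0.000473, limma). MRAP2 had -0.82, -1.54, -1.20 and -1.08 against 0.29, 0.25, 0.53 and 0.61, a difference of -1.58 (standard error 0.19, adjusted p = 0.00236, limma). SHC3 and MRAP2 were lower in FOXP1 cells of CHP-212 as they were in IMR-32, but in CHP-212 at 0 h already, with a ratio of -1.11 for MRAP2. The SHC3 levels on the FOXP1 arrays of 0 and 12 h were below any signal that those arrays flagged as well above background, so the size of its difference there is not known exactly. PPEF1, well above background on 2 of the 4 GFP arrays, was called in the opposite direction to IMR-32, with -3.38, -2.56, -2.73 and -2.57 in FOXP1 cells and -5.47, -5.24, -4.86 and -4.76 in GFP cells, a difference of 2.27 (standard error 0.24, adjusted p = 0.00128, limma). With normexp background correction the difference was 1.13 for PPEF1 and -2.36 for SHC3, so its size in these dim features depended on the background correction. PPP2R5B was higher in both lines, with a difference of 1.24 in CHP-212 (standard error 0.19, adjusted p = 0.0071, limma).

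ABCC8 and PEG10, higher in FOXP1 cells of IMR-32, were called lower in CHP-212. ABCC8 had -4.33, -4.33, -3.84 and -4.53 in FOXP1 cells and -2.77, -3.10, -0.92 and -0.91 in GFP cells, and FOXP1 minus GFP was -2.33 (standard error 0.51, adjusted p = 0.038 in limma). It was well above background on 2 of the 4 FOXP1 arrays. PEG10 had a difference of -1.69 (standard error 0.36, adjusted p = 0.0351, limma), with ratios of -2.30 and -0.87 at 0 and 72 h. SCML1 had a difference of -1.28 (standard error 0.24, adjusted p = 0.0217, limma). These calls were lost when any of several arrays was left out, though the differences stayed between -1.93 and -1.35 for PEG10, -2.72 and -1.99 for ABCC8 and -1.46 and -1.13 for SCML1. PEG10 lost its call without any 1 of the 4 GFP arrays or the FOXP1 array of 12 or 24 h, and ABCC8 without the GFP array of 24 or 72 h or any 1 of the 4 FOXP1 arrays. SCML1 lost it without the GFP array of 0, 12 or 72 h or the FOXP1 array of 12 or 24 h, and without these arrays the adjusted p (limma) reached 0.0935 for PEG10, 0.101 for ABCC8 and 0.0722 for SCML1. UKv4_A_23_P204937, lower in IMR-32, had a difference of -1.49 in CHP-212, which with normexp background correction was -0.69 and not called (adjusted p = 0.0726, limma). UKv4_A_23_P372834, higher in IMR-32, had 1.67 and lost its call without the GFP array of 0, 12 or 72 h or the FOXP1 array of 24 h (adjusted p up to 0.0651, limma) and, at an adjusted p of 0.193, with all 24 arrays in the fit. It was also lost with the time as a block (adjusted p = 0.0508, limma), and without the filter on dim features PEG10, ABCC8, SCML1 and UKv4_A_23_P372834 all lost their calls. The member called in SK-N-BE(2) was UKv4_A_23_P399112, at -1.35 (standard error 0.18, adjusted p = 0.013, limma), a call lost without the GFP array of 0 or 12 h or the FOXP1 array of 12 h (adjusted p up to 0.0615, limma).

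**Figure D5:**
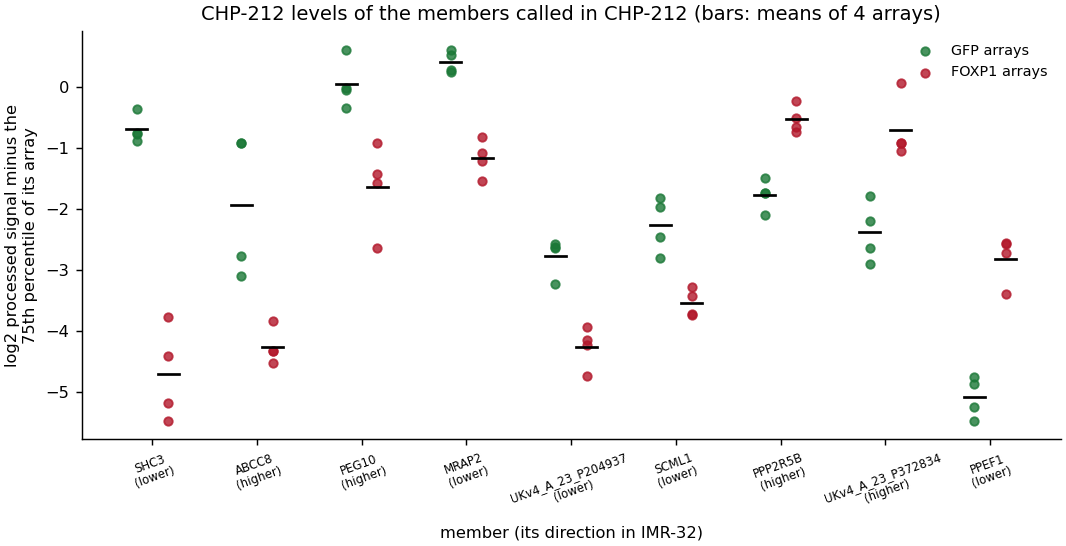
Log2 processed signal minus the 75th percentile of its array (vertical axis) on the 4 GFP and the 4 FOXP1 arrays of CHP-212, 1 point per array with a bar at each mean, for the 9 members called there (horizontal axis, with the direction in IMR-32 in brackets). The groups of 4 do not overlap in any of the 9, which were chosen for a difference between these groups. The share of all features without overlap was not counted. ABCC8, PEG10 and PPEF1 lie on the opposite side from IMR-32.

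The FOXP1 and GFP arrays did not overlap in any of the 9 members called in CHP-212. The differences within each slide therefore had to have the sign of the whole, and only their sizes are informative. SHC3 had a mean log2 difference of -4.70 on the slide of 0 and 12 h and -3.33 on that of 24 and 72 h, MRAP2 had -1.45 and -1.71, and PPEF1 had 2.38 and 2.16. ABCC8 had -1.40 and -3.26. On the slide of 0 and 12 h, SHC3 and ABCC8 in FOXP1 cells and PPEF1 in GFP cells were not well above background, so the sizes of their differences there are not known exactly. The slide of 0 and 12 h had the lower shares of features well above background in CHP-212, between 53.9 and 60.4%.

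The rule's own question, whether the ratio changed after 0 h, was put to the other lines as a contrast of the later arrays with the 0 h array in FOXP1 and in GFP cells, fitted with limma on all 24 arrays. No member was called at an adjusted p under 0.05, 0 of 127 tested in CHP-212 or of 138 tested in SK-N-BE(2). Other processing gave calls in CHP-212, 1 with the authors' table, 1 with quantile normalization and 5 with ratios matched by time. The share of all features called under these alternatives was not taken, so these counts cannot be set against one. In the main fit, 0.0668% of all features were called in CHP-212, 0.0577% with a higher and 0.00911% with a lower ratio after 0 h. In SK-N-BE(2) it was 0.0353%, with 0.0353% higher. At an unadjusted p under 0.05, 13 members stood in CHP-212 against 11.4% of all features, and 0 in SK-N-BE(2) against 0.432%. The 0 h arm is a single array per culture with no spread of its own, which the fit takes from the other arrays, so a p past no threshold does not show that a ratio stayed the same.

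The signs of that contrast were read beside those of all features. Of the higher members, 20 of 55 had a change above 0 in CHP-212, and for SK-N-BE(2) it was 20 of 59, where 45.6 and 50.9% of all features did. Of the lower members, 38 of 72 and 56 of 79 had a change above 0. The median change was -0.21 and -0.20 for the higher and 0.13 and 0.16 for the lower members in CHP-212 and SK-N-BE(2), against -0.07 and 0.01 over all features. The medians thus lay on the opposite side from the IMR-32 direction in both lines, which was not tested. Each contrast rests on the single 0 h array of each culture. In CHP-212 the FOXP1 array of 0 h had 53.9% of features well above background. The ratios of all features that passed the limit on background there had a standard deviation of 0.93 at 0 h, against 0.64, 0.60 and 0.51 at 12, 24 and 72 h.

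For 3 members described in IMR-32, the comparison of FOXP1 and GFP cells over all 4 times gave no call where it was tested. CDKN1B had a log2 difference of -0.09 in CHP-212 (adjusted p = 0.902, limma), and in SK-N-BE(2) it had -0.10 (adjusted p = 0.981, limma), close to 0 in both. TIMP3 was not tested in CHP-212, having passed the background flag on 1 of 8 arrays. In SK-N-BE(2) it had 1.33, past the limit on the fold change but not that on the adjusted p (adjusted p = 0.429, limma). TRIB3 had -0.37 in CHP-212 against -0.00 in SK-N-BE(2), with neither called.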

How the data were processed

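Cy3-labelled RNA was measured on 24 one-colour arrays, read with Feature Extraction 10.7.3.1. The authors deposited a table of quantile-normalized intensity and, per array, the intensity of the processed signal with flags. The table gave the IMR-32 ratios and levels, as log2. Tests used log2 processed signal minus the 75th percentile of its array, without 311 outlier spots and on features with the flag for signal above background on 4 or more of the 8 arrays of a line. They were fitted with limma 3.58.1 in R 4.3.3 on all such features, with p-values adjusted over them (Benjamini-Hochberg, two-sided). Called means an adjusted p under 0.05 and, for FOXP1 against GFP, a fold change of at least 2. Alternatives were other normalizations, limits, filters, fits and leaving out arrays. Named are, per direction, up to 12 members with a symbol and the largest mean later ratio, those with the flag on all 8 arrays first, with members called in the other lines or in a gene list, and without a symbol the 2 largest per direction. Members and lists were chosen with earlier results of these data known. The number of arrays limits the precision. Figures were drawn with matplotlib 3.10.9.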

Additional observations from a re-analysis of the deposited data

Results flagged for a closer look

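For the members named and the FOXP1 feature, groups of 4 arrays were searched for an array standing apart. In 9 of 110 groups, the gap of an array to the nearest other one, over the range of the group, exceeded the 95% critical value of Dixon. Chance gives about 1 in 20 such groups where values did not choose the members, a rate that does not hold for the IMR-32 levels, which did. GRIK2 had a log2 level of 6.66 in IMR-32 GFP cells at 12 h, where the other GFP arrays had 7.32 to 7.44. UKv4_A_24_P186936 had 17.16 in IMR-32 FOXP1 cells at 24 h, and its 0 h level of 5.38 stood apart among the GFP arrays. UKv4_A_32_P211117 had 6.70 in IMR-32 GFP cells at 0 h, and UKv4_A_23_P345118 had 9.88 in FOXP1 cells at 24 h. On the scale relative to the 75th percentile, UKv4_A_23_P399112 had -2.77 in CHP-212 FOXP1 cells at 24 h, and UKv4_A_23_P204937 had -3.23 in CHP-212 GFP cells at 0 h. UKv4_A_23_P372834 had 0.06 in CHP-212 FOXP1 cells at 0 h and 1.06 in SK-N-BE(2) GFP cells at 72 h.

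In SK-N-BE(2) the arrays labelled FOXP1 did not have more signal on the FOXP1 feature than those labelled GFP. The difference between arrays labelled FOXP1 and GFP itself differed between CHP-212 and SK-N-BE(2) for some of the members named, by a limma contrast on all 24 arrays. All of these but TNFSF4 were members called in CHP-212, so they were partly chosen for a difference there. The log2 difference in CHP-212 minus that in SK-N-BE(2) was -3.51 for SHC3 (adjusted p = 3.61e-05, limma), -2.34 for MRAP2 (adjusted p = 0.000619, limma) and 2.14 for PPEF1 (adjusted p = 0.00215, limma). It was -1.65 for PEG10, 1.12 for PPP2R5B, -1.56 for SCML1 and -2.05 for UKv4_A_23_P204937. TNFSF4 had 2.10 (adjusted p = 0.00952, limma), from a difference of 1.18 in CHP-212 against one of -0.92 in SK-N-BE(2), neither of them called within its line.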

How the results depend on the processing

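The IMR-32 counts moved with the processing. With normexp background correction and quantile normalization, 66, 51, 16 and 43 features met the rule with 0, 12, 24 and 72 h as the odd time, and 35 of the 66 were among the 145. A limit of 0.3 at the odd time gave 56, 38, 15 and 37, and a limit of 1 at the other times 46, 35, 19 and 40, counts that stricter limits lower by construction. Leaving out a later pair of arrays, which leaves fewer ratios to meet, gave between 197 and 366 for 0 h, with 366 without 12 h and 325 without 72 h. Scaling by the 75th percentile gave 131, with 115 of the 145 among them, and 144 were left without features with an outlier spot, an alternative chosen after seeing the data. The larger shift lay in FOXP1 cells for 57 of the 145, for 58 on the 75th percentile scale and for 65 with normexp.

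In CHP-212, 9 members were called, 4 with a filter on all 8 arrays (76 members tested), 7 with normexp, 6 without a filter, 11 with the time as a block and 13 with all 24 arrays in 1 fit (each with 8 of the 9), 14 with the study's unadjusted t-test, 5 with it adjusted and between 5 and 11 without single arrays, with 5 without the GFP array of 72 h or the FOXP1 array of 24 h. SCML1 had -0.77 with normexp and was not called. SHC3, MRAP2, PPEF1 and PPP2R5B were called under every alternative run for them, and UKv4_A_23_P204937 under all but normexp (adjusted p = 0.0726, limma). In SK-N-BE(2), 1 was called, 2 without a filter, 3 with the time as a block, 3 with all 24 arrays in 1 fit, 4 with the unadjusted t-test and between 0 and 1 without single arrays. For the change of the ratio after 0 h in CHP-212, 0 were called, 1 with the authors' table, 1 with quantile normalization and 5 with time-matched ratios, where the correlation of the paired arrays was 0.0535 at 0 h and 0.491, 0.549 and 0.445 at 12, 24 and 72 h. The cause was not tested where none is named. Leaving out a 0 h array leaves no such contrast and was not run. No direction reversed.

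Each ratio at 1 time is a single pair of arrays, the slide of 0 and 12 h cannot be told apart from these times against 24 and 72 h, and 4 arrays of a group are 1 culture. Members with signals near background in CHP-212 have differences that background correction changes, as in SHC3 (-2.36 with normexp), and so do IMR-32 ratios such as that of TNFSF4. Most members have no symbol here.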
